A study of Mus musculus with 8 samples.

Results

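A set of 8 genes that mark the epiblast and its formative transition was followed through both RNA-seq experiments of the study. They were Tcf15, Zic2, Otx2, Pou3f1, Lef1, Utf1, Fgf5 and Pim2, and they were taken by gene symbol from the tables of expression values. In the sorted cells 7 of the 8 genes had values among 13056 protein-coding genes, Fgf5 being not analysed there, and in the overexpression experiment 8 of 8 had values among 14319 genes. The samples were mouse embryonic stem cells (mESCs, labelled 3.5 days for developmental stage, from the cross C57BL/6(F) x 129/sv(M)) grown with serum and leukaemia inhibitory factor (LIF), 2 samples for each of 4 conditions. In the sorting experiment, 500 KLF3-GFP positive or KLF3-GFP negative cells per sample were collected from a reporter line made from picked colonies, which carried a CAGGS-driven fusion of GFP to KLF3 lacking the DNA-binding domain together with DsRed, and were sequenced after Smart-seq2. In the overexpression experiment, picked clones of a line that carries the M2rtTA transactivator at the Rosa26 locus, with Klf3 or GFP inserted at the Col1a1 locus under an inducible promoter, were treated with doxycycline for 72 hours and sequenced from poly(A)+ RNA. These conditions are called KLF3-OE and GFP-OE.

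Naive mESCs correspond to the epiblast before implantation. On leaving this state cells pass through a formative phase, in which naive factors are switched off, OTX2 and POU3F1 (OCT6) redirect OCT4 to new enhancers, and the growth factor FGF5 appears as a classical marker of the epiblast after implantation. TCF15 is a basic helix-loop-helix factor that primes mESCs for this step, ZIC2 is a zinc finger factor that binds enhancers, LEF1 is a nuclear effector of WNT signalling, UTF1 is a chromatin-associated protein of pluripotent cells, and PIM2 is a serine/threonine kinase that promotes survival.

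The authors deposited 1 FPKM value per gene and condition (mapped fragments scaled for transcript length and library size), which is their mean over the 2 samples. The spread between samples and the number of reads behind a value are therefore unknown, so that no error stands beside any value, and no test could be run. Differences are given on the log2(FPKM + 1) scale, which understates changes of low genes, and a gene is said to rise or fall only if it passed 2-fold on this scale and the mean of the conditions was 1 FPKM or more, here called the minimum. The median difference of all 9212 genes above this minimum was 0.03 in the sorted cells. On overexpression it was -0.18 over 11179 genes, where the FPKM summed to 612621 in GFP-OE and 834882 in KLF3-OE, and the split of genes past 2-fold moved with the scaling of the columns: 39.4% of them were higher in KLF3-OE as deposited, 62.9% after median-ratio scaling and 9.01% with both columns scaled to the same sum. The Klf3 transcript itself stood at 107 FPKM without and 122 FPKM with KLF3-GFP, and at 58.7 FPKM in GFP-OE and 47.8 FPKM in KLF3-OE cells. As the inserted Klf3 was codon-optimized and may escape alignment, this value does not check the label. Uty and Ddx3y on chromosome Y stood at 0.1 FPKM, the lowest value of the tables, in KLF3-OE against 3.56 and 3.34 FPKM in GFP-OE. Eif2s3y, also on chromosome Y, had 1.67 FPKM in KLF3-OE and 30.87 FPKM in GFP-OE. Of 4 genes of this chromosome above the minimum 3 fell and 1 rose, so that the lines of this experiment also differed in their Y-linked transcripts. As KLF3-OE and GFP-OE are separately picked clones, an effect of KLF3 cannot be told apart from a difference between clones. Below, rises and falls on overexpression are differences between these lines.

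The sequence upstream of the genes was read where a reference entry existed. Of the 8 genes, 5 matched a promoter entry of RefSeq (GRCm38.p6, the assembly also called mm10): Utf1, Pim2, Otx2, Lef1 and Fgf5. Tcf15, Zic2 and Pou3f1 had none. The stretches upstream of Utf1, the most abundant of the genes, and of Pim2, the gene whose window held the most kinds of motif, are shown 5′ to 3′ on the plus strand up to the base before the gene locus in the expression tables, so that no transcribed base of that locus is included. Capitals mark, on either strand, CACCC (the core of the CACCC box bound by KLF factors), GGGCGG (the GC box bound by SP and KLF factors), ATGCAAAT (the octamer bound by POU factors) and ATCAAAG (bound by TCF/LEF factors). Neighbouring GGGCGG matches of Utf1 overlap by their end bases.
Utf1, chr7:139943606-139943788: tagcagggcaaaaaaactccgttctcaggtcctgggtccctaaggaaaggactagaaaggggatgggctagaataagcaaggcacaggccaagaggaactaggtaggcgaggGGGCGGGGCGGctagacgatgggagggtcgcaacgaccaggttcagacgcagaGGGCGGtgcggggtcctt
Pim2, chrX:7878056-7878261: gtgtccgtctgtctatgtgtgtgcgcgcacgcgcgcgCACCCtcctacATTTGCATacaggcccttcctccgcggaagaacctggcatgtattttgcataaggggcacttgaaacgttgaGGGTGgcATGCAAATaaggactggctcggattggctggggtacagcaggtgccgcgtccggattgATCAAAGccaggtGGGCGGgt
The Utf1 stretch of 183 bases held 3 GC boxes and no CACCC. The Pim2 stretch of 206 bases held 2 octamers, 2 CACCC boxes, 1 GC box and 1 TCF/LEF motif. Among 32536 windows of 250 bases before RefSeq starts, 1.62% held an octamer, 3.21% ATCAAAG, 33% GGGCGG and 52.1% CACCC. The windows of 250 bases of Lef1 and Fgf5 held 3 and 5 CACCC matches, and that of Otx2 at the start of its deposited locus held none of these motifs and no TAATCC, an OTX-type motif that 6.25% of all windows held. These letters describe the sequence and are not evidence of binding, and the motifs were chosen after the sequences had been read.

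The genes spanned a wide range of levels. FPKM values are scaled for length, but this does not make them fully comparable between genes. The ratio of Utf1 to Pou5f1 was 5.31 in KLF3-GFP-negative and 0.231 in GFP-OE cells. These cells differ in line and in library protocol, and the part of either in this ratio was not tested. Utf1 (ENSMUSG00000047751, chromosome 7 from 139943789 to 139945112, plus strand, 2 exons) was the highest in each condition, at 609 FPKM in KLF3-GFP-negative cells, 225 FPKM in KLF3-GFP-positive cells, 204 FPKM in GFP-OE and 395 FPKM in KLF3-OE. Tcf15 (ENSMUSG00000068079, chromosome 2 from 152143561 to 152149097, plus strand, 2 exons) came next in each condition. The other genes were far lower. Pim2 (ENSMUSG00000031155, chromosome X from 7878262 to 7883432) was the third in sorted cells and in GFP-OE, and Otx2 (ENSMUSG00000021848, chromosome 14 from 48657679 to 48667644, minus strand) the third in KLF3-OE. Zic2 (ENSMUSG00000061524, chromosome 14 from 122475435 to 122479852) was lower than Utf1, Tcf15 and Pim2 in each condition. Pou3f1 (ENSMUSG00000090125, chromosome 4 from 124656807 to 124660655, 1 exon), Lef1 (ENSMUSG00000027985, chromosome 3 from 131110471 to 131224356) and Fgf5 (ENSMUSG00000029337, chromosome 5 from 98254184 to 98277030) are markers of the later epiblast and of WNT response. Pou3f1 ranged from 0.39 to 1.56 FPKM, and Lef1 and Fgf5 were below 1 FPKM wherever they had a value. Zic2 (1.15 and 1.65 FPKM) and Otx2 (2.42 and 1.27 FPKM) were also low in KLF3-GFP-negative and KLF3-GFP-positive cells. Utf1 alone made up between 71.9% and 81.6% of the summed FPKM of the genes in every condition. Because the protocols differ, this order was taken within each condition. Apart from the ratios to Pou5f1, levels were not compared between experiments. The spread needed to say which neighbours in this order are distinguishable is not known. In the GENCODE annotation the non-coding antisense genes Gm2164 and Gm43352 overlap Pou3f1 and Lef1, and Smart-seq2 keeps no strand, so reads of these loci cannot be assigned with certainty.

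**Figure D1:**
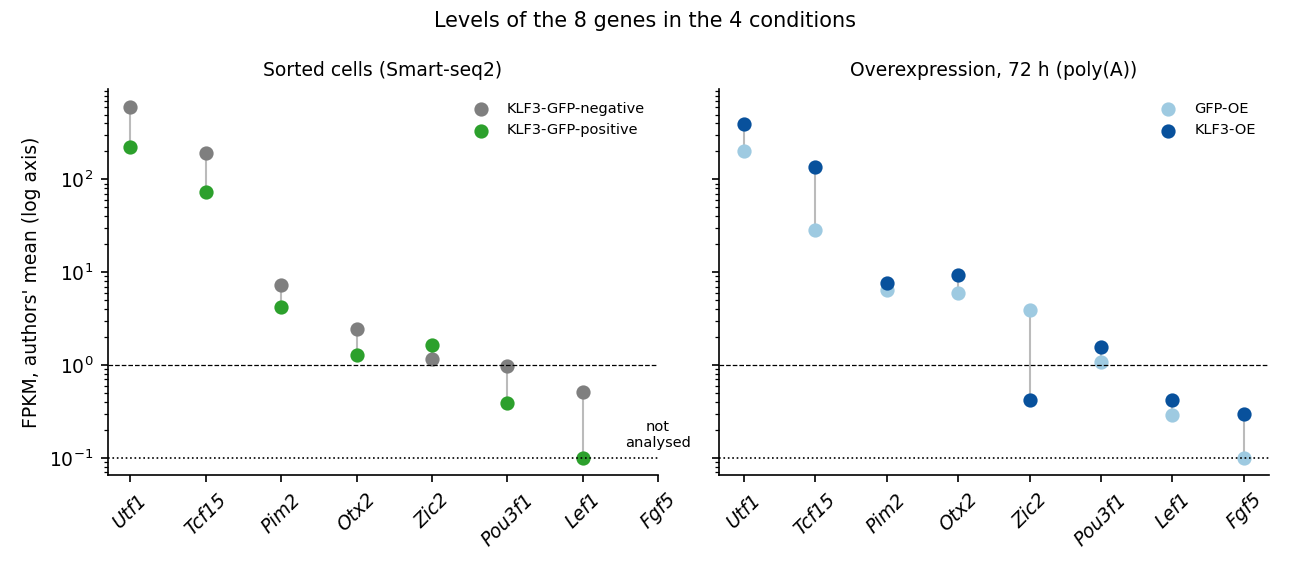
Levels of the 8 genes as the authors' mean FPKM (log axis) in KLF3-GFP-negative and KLF3-GFP-positive cells (left) and in GFP-OE and KLF3-OE cells (right), 1 point per condition, with no error because the spread between samples is unknown. The dotted line is the lowest value of the tables, 0.1 FPKM, and the dashed line is 1 FPKM; Utf1 and Tcf15 lie above the other genes in all 4 conditions.

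In KLF3-GFP-positive cells the most abundant genes of the group were lower than in KLF3-GFP-negative cells. Utf1 fell from 609 to 225 FPKM, 2.70-fold in plain FPKM and -1.43 on the log2 scale, and Tcf15 fell from 194.59 to 73.96 FPKM, 2.63-fold and -1.38. Utf1 was 3.13 times as high as Tcf15 in the negative and 3.04 times in the positive fraction. In bulk samples such as these, fewer cells that express a gene and less RNA per cell cannot be told apart. Among all genes above the minimum, 8.32% fell and 13.8% rose past 2-fold, and of the 5 members above it 2 fell and 0 rose. Only 3.65% of those genes had a lower difference than Utf1 and 3.94% a lower one than Tcf15.

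Pim2 had 7.36 FPKM in negative and 4.21 FPKM in positive cells (-0.68 on the log2 scale). Otx2, in the same order, had 2.42 and 1.27 FPKM (-0.59). Neither passed 2-fold. Zic2, with 1.15 and 1.65 FPKM (0.30), was the only member above the minimum with a higher value in KLF3-GFP-positive cells, against 51.7% of all genes. The median over the 5 members was -0.68, against 0.03 for all genes, and 4 of them were lower in KLF3-GFP-positive cells against 48.1% of all genes. Pou3f1 and Lef1 were under the minimum. Pou3f1 had 0.97 and 0.39 FPKM, while Lef1, at 0.51 FPKM in negative cells, was at 0.1 FPKM, the floor of the values, in positive cells.

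Between the KLF3-OE and GFP-OE lines the genes split. Tcf15 rose from 28.2 to 134.8 FPKM, 4.78-fold in plain FPKM and 2.22 on the log2 scale, and only 0.411% of the genes above the minimum had a larger difference. Zic2 fell from 3.91 to 0.42 FPKM, 9.31-fold in plain FPKM and -1.79 on the log2 scale, and 0.886% of genes had a lower difference. Among all genes 6.6% rose and 10.1% fell past 2-fold, and of the 6 members above the minimum 1 rose and 1 fell. Since the median of all genes was -0.18, these differences relative to it were 2.40 for Tcf15 and -1.61 for Zic2. Under every scaling tried Tcf15 stayed past 2-fold upward and Zic2 past 2-fold downward.

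Utf1 had 204 FPKM in GFP-OE and 395 FPKM in KLF3-OE cells, 1.94-fold in plain FPKM and 0.95 on the log2 scale, just under the 2-fold limit. With median-ratio scaling of the columns it passed the limit at 1.16, and with the trend of differences with genomic length removed it was 0.36. Otx2 had 5.91 and 9.38 FPKM (0.59), Pou3f1 1.07 and 1.56 FPKM (0.31) and Pim2 6.43 and 7.63 FPKM (0.22). None of these passed 2-fold, and the sign turned for Pim2 with both columns scaled to the same sum (-0.18) and for Pim2 and Pou3f1 with the length trend removed (-0.02 and -0.03). The median over the 6 members was 0.45, and 5 of them were higher in KLF3-OE cells, against 40.5% of all genes, and 1 was lower, against 59.4%. Under the minimum, Lef1 had 0.29 and 0.42 FPKM. Fgf5 stood at the lowest value in GFP-OE and had 0.3 FPKM in KLF3-OE cells, so the marker of the epiblast after implantation was close to the limit of the table in both lines.

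**Figure D2:**
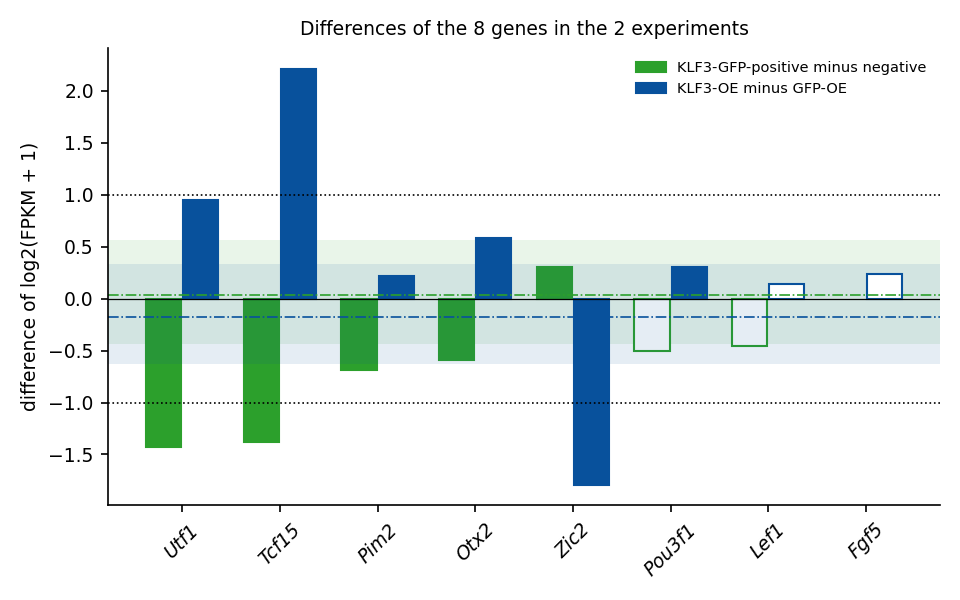
Differences of log2(FPKM + 1) for the 8 genes, KLF3-GFP-positive minus KLF3-GFP-negative (green) and KLF3-OE minus GFP-OE (blue), 1 bar per gene and experiment starting at 0. Open bars are genes with a mean under 1 FPKM, dotted lines mark 2-fold, dash-dotted lines the median of all genes (0.03 and -0.18) and shaded bands their middle quartiles; Tcf15 and Utf1 lie past or near the lines with opposite signs, and Zic2 is opposite to them.

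The experiments share no samples, and 5 of the members were above the minimum in both. Of these, Tcf15, Utf1, Otx2 and Pim2 were lower in KLF3-GFP-positive cells and higher in KLF3-OE cells, a combination seen for 21.3% of the 8887 genes above the minimum in both experiments. Zic2 was the reverse, as were 27.9% of those genes, and none of the 5 was lower in both, as were 26.8%. These directions and shares are of the values as deposited. On overexpression Pim2 changed sign with both columns scaled to the same sum (-0.18) and with the length trend removed. Tcf15 passed 2-fold in both directions, falling in sorted cells and rising on overexpression, and 0.743% of genes (66 genes) did so. The ratio of Utf1 to Tcf15, which hardly differed between the sorted conditions, was 7.22 in GFP-OE and 2.93 in KLF3-OE cells. The ratio of Otx2 to Zic2 was 2.10 in KLF3-GFP-negative, 0.77 in KLF3-GFP-positive, 1.51 in GFP-OE and 22.3 in KLF3-OE cells. The last value is uncertain, as Zic2 was at only 0.42 FPKM there. With the 2 samples of a condition already averaged, the difference between the experiments was not tested.

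**Figure D3:**
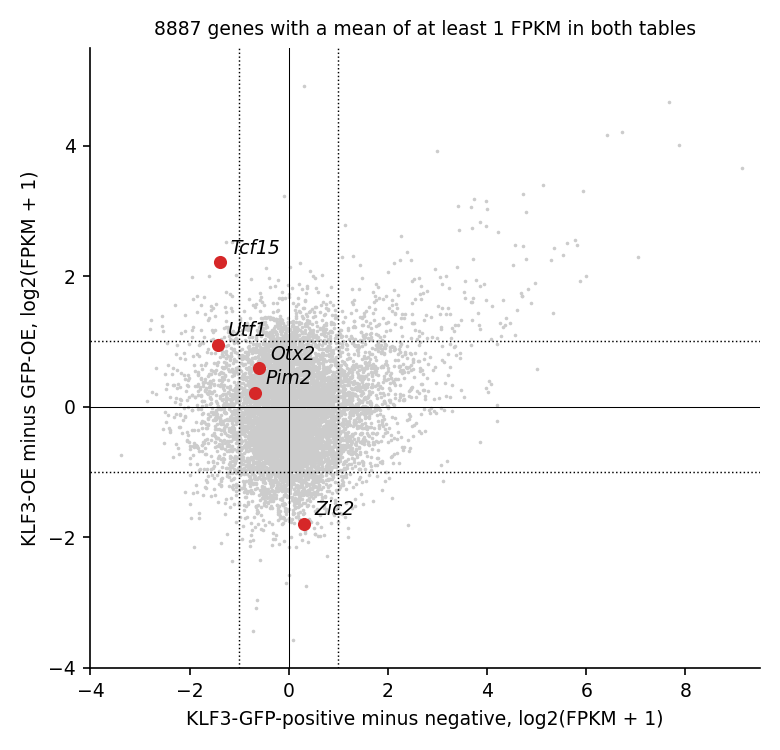
Difference in sorted cells (x axis) against difference on overexpression (y axis), both of log2(FPKM + 1), for the 8887 genes above the minimum in both tables (grey points) and the 5 members among them (red, named). Dotted lines mark 2-fold; Tcf15 lies past them in the upper left, at -1.38 and 2.22, and Zic2 in the lower middle, at 0.30 and -1.79.

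The gene whose pair of differences lay nearest to that of Utf1 was Stmn3, at a distance of 0.031 on the log2 scale over these 2 differences, followed by Ccdc106 at 0.066. Utf1 had 24 genes within a distance of 0.25, Pim2 had 300 and Otx2 had 218, so that likeness over so few conditions says little for the last 2. Tcf15 had 0 genes within this distance, and the nearest were Tagln (0.31), a smooth muscle actin-binding protein, and Apoa1 (0.33), the main apolipoprotein of high-density lipoprotein. For Zic2 they were Cenpc1 (0.069), a kinetochore protein, and Eif3a (0.11), a translation initiation factor. The nearest were Gltscr2 and Fdxr for Otx2 and Gm9825 and Chrac1 for Pim2.

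Other genes of the formative and primed states were compared with a list of 14. The counts of this list and of those below stand beside the shares of all genes above the minimum. In sorted cells 13.8% of these rose and 8.32% fell, and on overexpression 6.6% rose and 10.1% fell. In sorted cells 7 of them were above the minimum, of which 3 fell and 1 rose, with a median of -0.99. Dnmt3b, a de novo DNA methyltransferase, rose from 6.15 to 20.4 FPKM, whereas Etv5, an ETS factor downstream of FGF signalling, fell from 12.0 to 4.01 FPKM. The other two that fell were Dnmt3a, from 44.5 to 18.9 FPKM, and Fgf15, from 2.11 to 0.38 FPKM. Etv4 was just short of 2-fold (-0.99) and passed it downward under each scaling tried. The genes Sox3, Foxd3, Sall2, Grhl2, Zic5, Cdh2 and Fgf8 were under the minimum, none above 0.8 FPKM. On overexpression 11 genes were above it, of which 1 rose and 1 fell, with a median of 0.07. Dnmt3a rose from 23.2 to 50.1 FPKM, but was not past 2-fold with both columns scaled to the same sum (0.65 on the log2 scale), where the median of the list was -0.33. Zic5, the neighbour of Zic2, fell from 3.52 to 0.74 FPKM.

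The pluripotency genes around them were mostly lower in sorted cells. There 11 of 13 naive and 6 of 8 general genes were lower, against 48.1% of all genes, as were 4 of 5 members. On overexpression 12 of 15 naive and 5 of 8 general genes were lower, the latter close to the 59.4% of all genes. Of the 6 members 5 were higher, against 40.5% of all genes, but the signs of Pim2 and Pou3f1 depended on the processing. In sorted cells 8 of 13 naive genes above the minimum fell and 1 rose (median -1.07), led by Fgf4, from 13.6 to 2.84 FPKM, and Dppa3, from 23.4 to 5.53 FPKM. The gene that rose was Tbx3 (1.02 on the log2 scale), which was not past 2-fold under any scaling tried. Of 8 genes of general pluripotency 4 fell and 0 rose (median -1.07), led by Tdgf1, the Nodal co-receptor Cripto, from 324 to 68.9 FPKM, and Sox2, with Dppa2 and Dppa4 as the others that fell. Tcf15 and Utf1 thus fell beside these genes in the same sorted fraction. The ratio of Utf1 to Pou5f1, which encodes OCT4, was 5.31 in negative and 3.79 in positive cells, and that of Tcf15 to Pou5f1 was 1.70 and 1.24. On overexpression 7 of 15 naive genes fell and 1 rose (median -0.82), 4 falling with median-ratio scaling and 11 with equal column sums. Prdm14 fell from 11.9 to 3.2 FPKM and Gbx2 rose from 9.17 to 26.7 FPKM. Of the 8 general genes 0 fell and 1, Sall4, rose, from 43.3 to 90.5 FPKM (median -0.35), a rise that did not pass 2-fold with the columns scaled to the same sum (0.61), where 3 of the genes fell, while Tdgf1 had 673 and 405 FPKM. The ratio of Tcf15 to Pou5f1 was 0.032 in GFP-OE and 0.136 in KLF3-OE cells, and that of Utf1 to Pou5f1 was 0.231 and 0.399. Both ratios were far lower here than in the sorted cells, so they can be read only within an experiment. Pou5f1, Sox2 and Nanog, the defining markers of mESCs, were above 1 FPKM in all 4 conditions, but this bar does not show that they were unchanged. Nanog was among the naive genes that fell in each comparison. Its level was 20.8 FPKM with KLF3-GFP absent and 5.03 FPKM with it present (-1.85 on the log2 scale). The GFP-OE line had 255 FPKM of Nanog, against 103 FPKM in the KLF3-OE line (-1.30). As deposited, Pou5f1 passed 2-fold in neither comparison, and Sox2 only between the sorted fractions.

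Primitive endoderm markers moved with both comparisons, and in the trophoblast list the rises were those of Krt8, Krt18 and, on overexpression, Hand1. The 12 primitive endoderm markers all rose in sorted cells (median 4.29), their summed level going from 44.99 to 1655 FPKM, led by Dab2, from 0.78 to 232.84 FPKM, and Col4a1, from 1.47 to 137.67 FPKM. Of them Foxa2 was at the lowest value in KLF3-GFP-negative cells. All 12 rose on overexpression as well (median 2.02, summed level 203 and 838 FPKM; 10 of 12 with equal sums without ribosomal protein genes), led by Col4a1 and Lama1, from 6.38 to 39.7 FPKM. Of 9 trophoblast markers 5 were above the minimum in sorted cells, where Krt18 (12.7 to 183 FPKM) and Krt8 (18.3 to 206 FPKM) rose and 1 gene, Ascl2, fell, and 6 on overexpression, where 3 rose, led by Krt18 (36.6 to 340 FPKM) and Krt8 (26.3 to 176 FPKM), with Hand1 (0.83 to 4.16 FPKM) as the third. Tfap2c, a trophoblast regulator, had 2.4 and 0.77 FPKM in sorted cells (-0.94 on the log2 scale) and 26.2 and 13.1 FPKM on overexpression (-0.95), and passed 2-fold downward in both with equal column sums. Summed trophoblast levels were 37.5 and 393 FPKM in the sorted and 94.1 and 540 FPKM in the overexpressing cells, but without the keratin genes Krt8 and Krt18 the other 6 markers with values summed to 6.52 and 4.04 FPKM and to 31.2 and 24.1 FPKM, with Cdx2 and Gata3 under the minimum in both experiments. The summed level of the primitive endoderm list was thus higher in KLF3-GFP-positive cells, in which Utf1 and Tcf15 fell, and in KLF3-OE cells, in which Tcf15 rose. The part of these markers in the differences of the 8 genes was not tested.

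**Figure D4:**
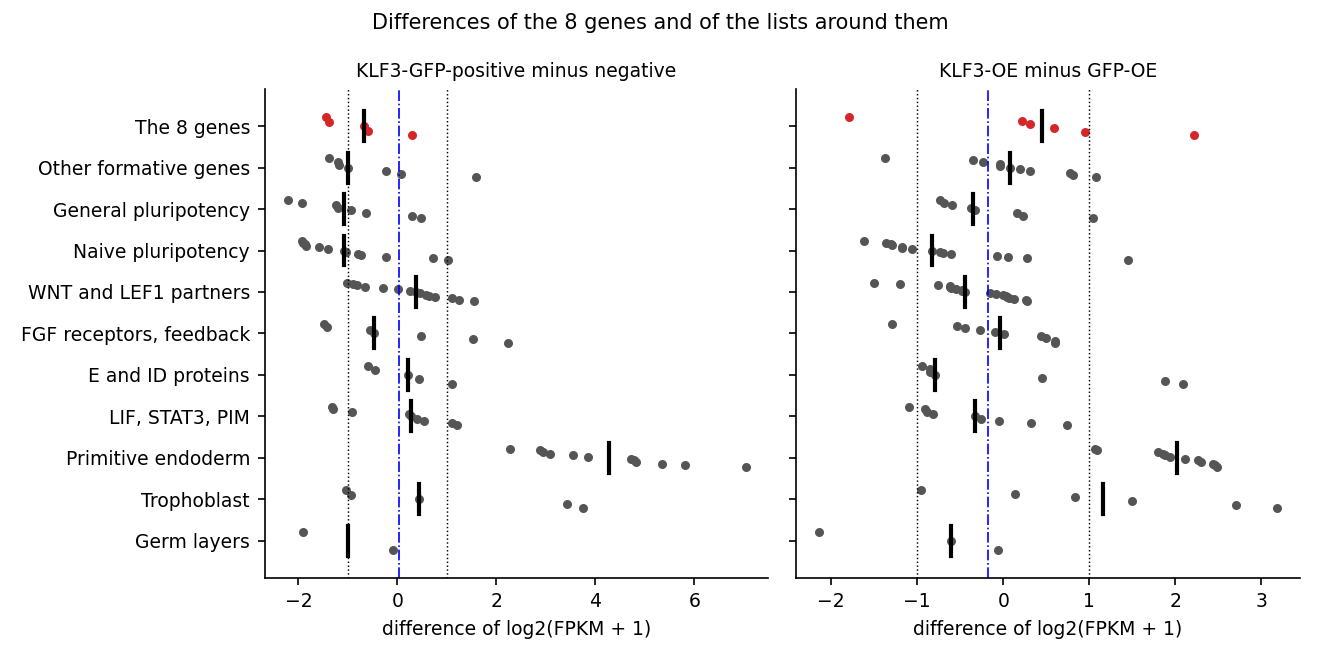
Differences of log2(FPKM + 1) in sorted cells (left) and on overexpression (right) for the 8 genes (red) and the lists around them (grey), 1 point per gene above the minimum of 1 FPKM. Thick bars are medians, dotted lines mark 2-fold and the dash-dotted line is the median of all genes; the primitive endoderm list lies to the right of 2-fold in both panels, at medians of 4.29 and 2.02, and the 8 genes have medians of -0.68 and 0.45.

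The partners of the genes were examined by pathway. TCF15 acts as a dimer with E proteins, from which ID proteins can displace it. Of this list of 7 genes, 1 of 5 above the minimum rose in sorted cells and 0 fell. It was Id2, from 7.18 to 16.7 FPKM, which did not pass 2-fold after quantile normalization, and the E protein gene Tcf4 had 3.62 and 2.08 FPKM. On overexpression, where Tcf15 rose, Id1 rose from 29.6 to 128.85 FPKM and Id3 from 4.01 to 17.4 FPKM, and 0 of 7 fell (median -0.79), though 4 fell with equal column sums.

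LEF1 acts with β-catenin, and its own transcript was low. Of 20 WNT pathway and LEF1 partner genes, 15 were above the minimum in sorted cells, of which 3 rose and 1 fell (median 0.37). The related factor Tcf7l2 rose from 34.02 to 101.1 FPKM and the co-repressor gene Tle3 from 1.63 to 5.21 FPKM, Ctnnb1 was the third to rise (6.79 to 15.7 FPKM, not past 2-fold after quantile normalization at 0.95), and Tle4 fell (4.66 to 1.79 FPKM). Of 19 on overexpression 2 fell and 0 rose (median -0.45), close to the 10.1% of all genes that fell. With equal column sums 6 fell, as did 3122 of all 11725 genes above the minimum. The 2 that fell as deposited were Apc, from 7.51 to 2 FPKM, and Ctnnb1, which encodes β-catenin, from 163 to 70.3 FPKM. Ctnnb1 no longer passed 2-fold with median-ratio scaling.

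For FGF5 the receptors and feedback genes of the FGF pathway were counted. Of 7 genes above the minimum in sorted cells 2 rose and 2 fell, with Dusp4, a phosphatase acting on MAP kinases, from 1.44 to 10.5 FPKM and Fgfr2 from 0.61 to 3.66 FPKM rising, and Fgfr1 from 7.04 to 1.87 FPKM and Dusp6 from 4.97 to 1.23 FPKM falling. On overexpression 1 of 10 fell, close to the 10.1% of all genes. It was the adaptor gene Frs2, from 4.32 to 1.17 FPKM, but not past 2-fold with the length trend removed. Of this list 0 rose, while Dusp4 had 5.58 and 9.01 FPKM. PIM kinases are induced by LIF through STAT3 and phosphorylate BAD and 4E-BP1. In this list of 9 genes 2 rose and 2 fell in sorted cells (median 0.28), where Eif4ebp1 fell from 1507.47 to 606.89 FPKM and Pim3 from 25.8 to 9.91 FPKM. The genes that rose were Bad, from 23.6 to 56.0 FPKM, and the LIF receptor gene Lifr, from 3.32 to 8.25 FPKM. Lifr was not past 2-fold after quantile normalization (0.96 on the log2 scale), where Pim1 was the third to fall. On overexpression 1 fell, Il6st, a co-receptor for LIF, from 9.80 to 4.05 FPKM, though 0 fell with median-ratio scaling and 4 with equal column sums, and 0 rose (median -0.33), with Stat3 at 14.6 and 7.30 FPKM.

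The nearest genes above the minimum on either side of each member were taken by position alone. In sorted cells 2 of 14 such neighbours passed 2-fold, where 13.8% of all genes rose and 8.32% fell, so this count does not stand out. Slc35a2, which encodes a UDP-galactose transporter and begins 609 bases from the end of Pim2, rose from 0.62 to 12.65 FPKM, and Rragc, 719810 bases from Pou3f1, rose from 2.6 to 7.08 FPKM. On overexpression 2 of 16 did, both beside Zic2, where 6.6% of all genes rose and 10.1% fell. Zic5, 9758 bases away, fell as given above (-1.38 on the log2 scale), and Pcca, on the other side at 54472 bases, rose from 8.96 to 19.4 FPKM, a log2 difference of 1.04 that became 0.64 with equal column sums. The neighbours of Tcf15, Srxn1 and Csnk2a1, had differences between -0.76 and 0.43 in both experiments.

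**Figure D5:**
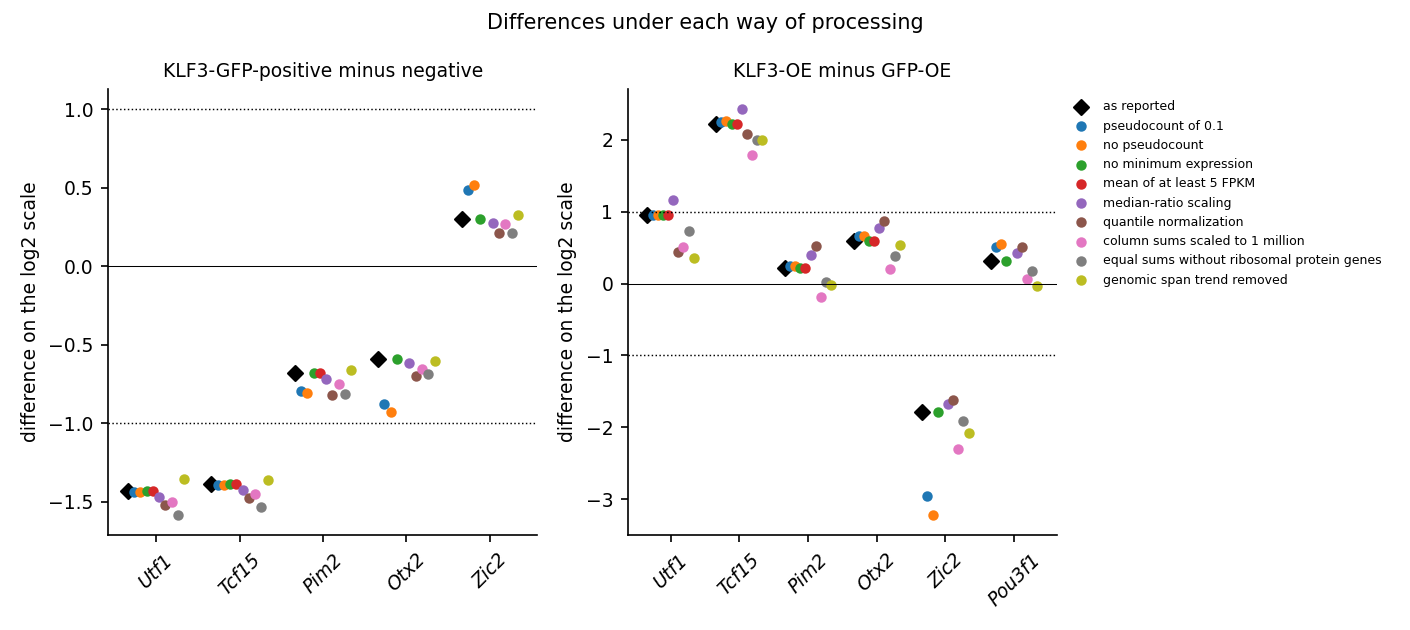
Differences of the members above the minimum in sorted cells (left) and on overexpression (right) as reported (black diamonds) and under 9 other ways of processing (coloured points), on a log2 scale, with dotted lines at 2-fold. Utf1 and Tcf15 stay past the lower line in sorted cells; on overexpression Tcf15 ranges from 1.79 to 2.42 and Zic2 from -3.22 to -1.61, while Utf1 ranges from 0.36 to 1.16.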

How the data were processed

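RNA-seq of 8 mESC samples was analysed from the tables of expression values. The authors aligned reads to mm10 with STAR guided by GENCODE (version 2.6.0 in the submitters' processing notes), computed FPKM with Cufflinks (version 2.2.1), averaged the 2 samples of a condition and deposited FPKM of protein-coding genes, given to 2 decimals and never under 0.1. No source used here says whether strand was used in counting. Deposited starts count from 0 and are printed counted from 1.

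From these values differences of log2(FPKM + 1) were computed with Python (version 3.11.15) where the mean of the conditions reached 1 FPKM. Genes past 2-fold were counted. Loci sharing an identifier were represented by the highest mean. No test was possible on 1 average per condition, and depth per sample is unknown. The code was checked on simulated tables in which 200 genes had been changed.

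The members and lists (formative and primed, naive and general pluripotency, WNT and LEF1 partners, FGF receptors and feedback, E and ID proteins, LIF-STAT3-PIM, paralogs, primitive endoderm, trophoblast, fibroblast and germ layer markers) were chosen with earlier results of these data known. Named are the members, the 2 genes of each list with the largest absolute difference in each experiment, the 2 genes nearest to each member over both differences, and Klf3 and Y-linked genes as checks. The genomic neighbours, Foxa2, other genes named to complete a list's count, the genes under the minimum and the ratios to Pou5f1 were chosen after their values were seen. Sensitivity was examined with 9 alternatives. Promoter windows came from RefSeq.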

Additional observations from a re-analysis of the deposited data

How the results depend on the processing

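Of 95 values of the members under the 9 alternatives, 3 changed sign and 1 changed its side of the 2-fold limit. The sign changes were those of Pim2 (-0.18 with equal column sums, -0.02 with the trend of genomic span removed) and of Pou3f1 (-0.03 with the span trend removed), all on overexpression, and the change of side was that of Utf1. Among other named genes 21 of 368 values changed side. The causes were not tested.

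The member median in sorted cells (-0.68) was -0.88 with a pseudocount of 0.1, -0.93 with none, -0.59 with no minimum expression, -1.38 with a mean of at least 5 FPKM, -0.72 with median-ratio scaling, -0.82 with quantile normalization, -0.75 with equal sums, -0.81 with equal sums without 84 ribosomal protein genes and -0.66 without the span trend. On overexpression (0.45) it was 0.58, 0.61, 0.27, 0.77, 0.60, 0.51, 0.13, 0.28 and 0.17 in the same order. With a mean of at least 5 FPKM, 0 members fell on overexpression, as Zic2 was left out, and with median-ratio scaling 2 rose.

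Genes past 2-fold in sorted cells numbered 1267 up and 766 down, and 840 and 417 at a mean of at least 5 FPKM. On overexpression 738 genes were up and 1133 down. Up were 1167 with median-ratio scaling, 309 with equal sums and 426 with equal sums without ribosomal protein genes. Down were 1819 with a pseudocount of 0.1, 1912 with none, 734 at 5 FPKM, 688 with median-ratio scaling, 701 with quantile normalization, 3122 with equal sums, 1860 without ribosomal protein genes and 587 without the span trend.

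No paired analysis was possible because the tables hold 1 average per condition. For the same reason leaving out each replicate was not run.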

Other observations

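Related genes of the members were listed separately. Of 17 paralogs, 6 were above 1 FPKM on average in sorted cells, of which 2 fell and 1 rose (median -0.57), and the largest differences were those of Fgf4 and Tcf7l2. On overexpression 8 were above it, 1 fell (Zic5) and 0 rose (median -0.47). With equal column sums 4 fell, with the genomic length trend removed 3, and with equal sums without ribosomal protein genes 2. Pim1, at 41.6 FPKM in GFP-OE and 23.1 FPKM in KLF3-OE cells (-0.82), was past 2-fold in those 3 settings. In sorted cells Pim1 was past 2-fold downward after quantile normalization.

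Among 9 germ layer markers Pax6, a neural factor, fell in both experiments, from 4.5 to 0.47 FPKM in KLF3-GFP-positive and from 5.4 to 0.45 FPKM in KLF3-OE cells, and the others stayed under 2-fold or under the minimum, except that Nes passed 2-fold downward on overexpression with equal column sums (-1.02). Mixl1 had 1.10 and 0.97 FPKM in sorted cells, and Nes 6.29 and 3.8 FPKM on overexpression. Of 8 fibroblast markers none was above the minimum in sorted cells, where 2 had values, none above 0.45 FPKM. On overexpression only Thy1 was above it, with 2.72 and 3.14 FPKM, and the summed level of the 4 markers with values was 3.85 FPKM in GFP-OE and 4.41 FPKM in KLF3-OE cells.

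Pim2 lies on chromosome X, whose genes had a median difference of 0.16 in sorted cells (287 genes) and -0.29 on overexpression (361 genes), against 0.03 and -0.18 for all genes.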
